A study of Mus musculus with 17 samples.

Results

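Gda encodes guanine deaminase, the enzyme that turns guanine into xanthine and so commits a purine base to breakdown. Its transcript was followed here together with those of 8 other genes of purine salvage and breakdown (Xdh, Pnp, Ada, Ampd3, Samhd1, Hprt, Aprt and Adk), 9 genes of the 22859 in the count table, in synovial macrophages of mice challenged with immune complexes (ICs). The genes were taken by symbol, and the list around Gda was chosen by the rise of Gda in LYVE1+CX3CR1+ macrophages after IC, a measured value of these libraries. Gda is therefore described, without a test, in each comparison that holds LYVE1+CX3CR1+ libraries. Which measured values entered the choice of the other 8 genes is not recorded, so their tests are not independent evidence.

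In purine metabolism, nucleotides are broken down to nucleosides and free bases. Ampd3 and Ada remove the amino group of AMP and adenosine, Pnp cleaves inosine and guanosine into hypoxanthine and guanine, Gda makes xanthine from guanine, and Xdh oxidises hypoxanthine and xanthine to urate, which mice degrade further. Against this route, Hprt and Aprt rebuild nucleotides from free bases and Adk rebuilds AMP from adenosine. Urate crystals are the trigger of gout, in which synovial macrophages take part, and Xdh is the target of allopurinol.

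All mice were Fcgr2b-KO, that is, lacking the inhibitory Fc gamma receptor IIb, were 8 to 20 weeks old and were of both sexes. ICs of ovalbumin and rabbit antibody to ovalbumin were given intravenously 8 h before the synovium was taken, and control mice had no IC. LYVE1+CX3CR1+ macrophages (sorted as MHCII-Ly6C-), MHCII+CD11c- macrophages and MHCII+CD11c+ macrophages were sorted from both, with 3 libraries per group and 2 of MHCII+CD11c+ macrophages after IC. No Fcgr2b-sufficient mice are analysed here, so every value belongs to the knockout background. The labels do not say which libraries came from 1 mouse or whether animals were pooled, so p-values measure the spread between these 17 libraries, which may be technical.

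Libraries held 2301913 to 7248939 counts. Depth went with treatment in the LYVE1+CX3CR1+ subset, without overlap. Its IC libraries held 2301913 to 3348248 counts, with 11547 to 14068 genes detected (any count above 0). Its controls held 3669763 to 7248939 counts, with 16974 to 19926 genes detected. The 7 macrophage markers were present in each group, with a summed level of 5425 to 7839 CPM (read counts relative to the scaled library total) in the LYVE1+CX3CR1+ and MHCII+CD11c- libraries and 1958 to 3969 CPM in the MHCII+CD11c+ libraries. Itgax, which encodes CD11c, was at 275 to 443 CPM in the MHCII+CD11c+ libraries and at no more than 16.0 CPM elsewhere. The 4 MHCII genes summed to at most 156 CPM in the LYVE1+CX3CR1+ libraries and to at least 11130 CPM in the others. The 5 markers of the LYVE1+CX3CR1+ sort summed to 3552 to 6516 CPM in its own libraries, 988 to 3293 CPM in MHCII+CD11c- and 57.5 to 581 CPM in MHCII+CD11c+ libraries. Of other cell types, monocyte markers reached 1153 CPM and neutrophil markers 271 CPM, both in MHCII+CD11c+ controls, and fibroblast (113), adipocyte (50.3), B cell (32.1), erythroid (18.4), muscle (10.4) and T cell markers (6.61) stayed at or below the CPM given. CPM values were scaled by the trimmed mean of M values (TMM). Calls were made with edgeR's quasi-likelihood test at a Benjamini-Hochberg adjusted p below 0.05, with the adjustment made across 15272 genes. All 9 genes passed the filter on low counts.

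Gda (chromosome 19, 21391307 to 21473445, minus strand, GRCm38) was expressed in each subset, and its mean level was higher after IC in each. In LYVE1+CX3CR1+ macrophages, control libraries were at 158, 198 and 232 CPM and IC libraries at 660, 477 and 480 CPM. All IC libraries lay above all controls, and the means were 196 ± 37.2 and 539 ± 105 CPM (SD, n = 3 each). This was a 2.75-fold rise, or 1.46 ± 0.19 on the log2 scale (SE), and is the value for which the list was drawn up.

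The libraries of MHCII+CD11c- macrophages did not give that value. In them Gda was at 373, 301 and 387 CPM in controls and at 675, 775 and 1017 CPM after IC. Each IC library lay above each control, and the gene rose 2.33-fold (log2 fold change 1.22 ± 0.19, edgeR adjusted p = 0.00195). The list was chosen with earlier results of these data known, so this test is not independent evidence. The call held in 27 of 27 alternatives of processing, with a highest adjusted p of 0.0304 without the third IC library, the one with the highest Gda. Gda was the single gene of the 9 that was called in this subset, where 0.701% of all genes tested were called. Endothelial markers, which summed to 7.95 to 19.1 CPM in controls and 5.10 to 33.8 CPM after IC, and mast cell markers, at 0.177 to 2.35 and 0 to 26.4 CPM, had their highest sums in IC libraries of this subset. In the libraries with 675, 775 and 1017 CPM of Gda, endothelial markers were at 5.10, 33.8 and 9.36 CPM and mast cell markers at 1.11, 26.4 and 0 CPM. Markers of the sorts also moved with IC in this subset, without overlap. Those of the LYVE1+CX3CR1+ sort summed to 988 to 1721 CPM in controls and 1817 to 3293 CPM after IC, and the MHCII genes to 16325 to 17607 CPM and 11130 to 11575 CPM. The part of any of these in the rise of Gda was not tested.

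In MHCII+CD11c+ macrophages, Gda was at 364, 330 and 447 CPM in controls and at 500 and 587 CPM in the 2 IC libraries. The groups did not overlap, but the 1.43-fold difference (log2 fold change 0.52 ± 0.21) did not pass the test (adjusted p = 0.820). None of the 9 genes was called in this subset by edgeR, DESeq2 or voom, 2 of them (Gda and Samhd1) had an unadjusted p under 0.05, and 0.216% of all genes were called. The difference between the IC responses of MHCII+CD11c+ and MHCII+CD11c- macrophages was -0.70 ± 0.29 for Gda, which was not called (unadjusted p = 0.0234, adjusted p = 1). Mast cell markers were at 18.7 to 41.6 CPM in these IC libraries and at 0.425 to 3.40 CPM in the controls, and endothelial markers at 26.2 to 27.0 and 3.03 to 15.0 CPM. Macrophage markers summed to 3260 to 3969 CPM after IC and 1958 to 2851 CPM in controls, and neutrophil markers to 25.1 to 29.5 and 74.3 to 271 CPM. Markers of the LYVE1+CX3CR1+ sort summed to 559 and 266 CPM after IC and to 83.6, 581 and 57.5 CPM in controls. Their part in any difference of this subset was not tested.

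Set in order by group mean, Gda was lowest in LYVE1+CX3CR1+ controls (196 CPM), followed by MHCII+CD11c- controls (354 ± 46.0 CPM) and MHCII+CD11c+ controls (380 ± 60.1 CPM), whose libraries overlapped. LYVE1+CX3CR1+ (539 CPM) and MHCII+CD11c+ macrophages (544 ± 61.9 CPM) after IC came next and also overlapped. MHCII+CD11c- macrophages after IC were highest (822 ± 176 CPM), with each library above those of the other groups. LYVE1+CX3CR1+ macrophages thus had the lowest Gda at rest and reached the IC level of the MHCII+CD11c+ subset. The fitted difference of LYVE1+CX3CR1+ controls was -0.85 ± 0.19 against MHCII+CD11c- and -0.95 ± 0.19 against MHCII+CD11c+ controls on the log2 scale, given as a description. Between the MHCII+ subsets of control mice, Gda did not differ by the test (0.10 ± 0.19, adjusted p = 0.823).

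**Figure D1:**
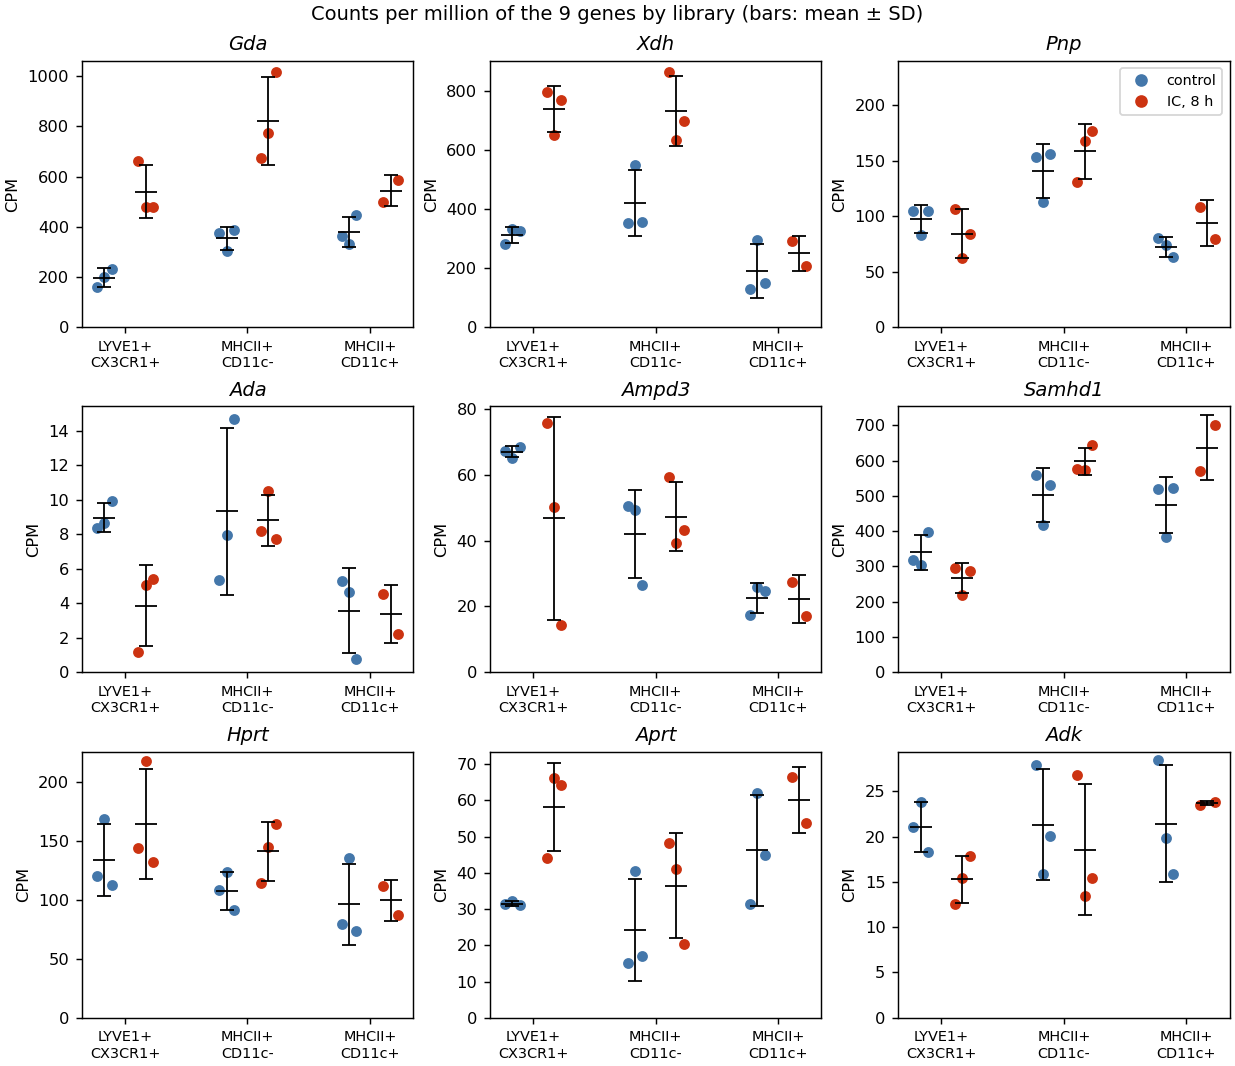
Each panel plots the CPM (TMM-scaled, linear axis from 0) of 1 gene in each library by subset, with controls in blue, IC libraries in red and bars for the mean ± SD of 3 libraries (2 for MHCII+CD11c+ after IC). All IC libraries of Gda lie above the controls in each subset, a difference not tested in LYVE1+CX3CR1+ and not called in MHCII+CD11c+ macrophages. Those of Xdh do so in LYVE1+CX3CR1+ macrophages and in MHCII+CD11c- macrophages, where the difference was not called, and overlap in MHCII+CD11c+ macrophages. Pnp and Hprt libraries of IC and control mice overlap in each subset.

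Xdh (chromosome 17, 73883895 to 73950196, minus strand), the enzyme after Gda in the route, was the other gene with a rise after IC. LYVE1+CX3CR1+ libraries were at 282, 333 and 323 CPM in controls and 795, 650 and 767 CPM after IC, with no overlap. The rise was 2.36-fold (log2 fold change 1.24 ± 0.25, adjusted p = 0.0206), and Xdh was the only one called of the 8 genes tested there, against 0.963% of all genes. The adjusted p lay above the threshold without replicate 1, 2 or 3 of the controls (0.0857, 0.0683 and 0.0801) or without replicate 3 after IC (0.0607), while the log2 fold change stayed between 1.20 and 1.37 in all 27 alternatives. Endothelial cells also express Xdh, and endothelial markers summed to 1.35 to 5.16 CPM in LYVE1+CX3CR1+ controls and to 0.878, 35.3 and 4.98 CPM after IC. Xdh in these 3 libraries was at 795, 650 and 767 CPM, in the same order. Markers of the LYVE1+CX3CR1+ sort summed to 3552 to 4385 CPM in controls and 5560 to 6516 CPM after IC, and the MHCII genes to 102 to 156 and 19.8 to 49.2 CPM. The part of any of these in the rise was not tested.

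In MHCII+CD11c- macrophages, Xdh was at 353, 548 and 355 CPM in controls and 862, 634 and 697 CPM after IC. All IC libraries exceeded the highest control, but the difference of 1.74-fold (0.80 ± 0.25) was not called (adjusted p = 0.193). Without the second MHCII+CD11c+ control library, which is in neither group, it was called (adjusted p = 0.0332) (the fit shares 1 estimate of the spread over all groups). MHCII+CD11c+ libraries were at 127, 295 and 149 CPM in controls and at 291 and 207 CPM after IC, and overlapped (0.39 ± 0.28, adjusted p = 1). Averaged over the 3 subsets, Xdh rose 1.75-fold after IC (0.81 ± 0.15, adjusted p = 0.00351). That call held in 26 of 26 alternatives, and Xdh was again the one called of 8 genes, with 3.35% of all genes called in this average.

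The genes upstream of Gda were not called after IC. Pnp (chromosome 14, 50931082 to 50965237, plus strand), which supplies guanine and hypoxanthine, was at 105, 83.2 and 105 CPM in LYVE1+CX3CR1+ controls and 106, 62.3 and 83.8 CPM after IC, in overlapping ranges (-0.21 ± 0.22, adjusted p = 0.729). Its log2 difference was 0.17 ± 0.21 (MHCII+CD11c-) and 0.37 ± 0.24 (MHCII+CD11c+) (adjusted p = 0.903 and 1). Ada, which makes inosine from adenosine, was at a low level. Its LYVE1+CX3CR1+ libraries held 8.35, 8.65 and 9.91 CPM in controls and 1.17, 5.04 and 5.39 CPM after IC. Each IC library lay below each control, on only 4, 16 and 13 counts, and the difference was not called (-1.22 ± 0.73, adjusted p = 0.490).

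Ampd3, which forms IMP from AMP, was even among LYVE1+CX3CR1+ controls (67.2, 65.1 and 68.5 CPM) and spread widely after IC (75.8, 50.04 and 14.5 CPM). The third IC library, also the smallest of all 17, was the lowest, and without it the log2 difference moved from -0.51 to -0.04. Ampd3 was not called in any of the 3 subsets after IC (adjusted p from 0.606 to 1). Samhd1, which hydrolyses deoxynucleoside triphosphates to deoxynucleosides, was at 319, 304 and 397 CPM in LYVE1+CX3CR1+ controls and 295, 218 and 288 CPM after IC. In MHCII+CD11c- macrophages it was at 559, 417 and 532 CPM in controls and 576, 574 and 643 CPM after IC. MHCII+CD11c+ controls held 518, 384 and 522 CPM and the IC libraries 571 and 701 CPM. The IC libraries thus lay below the controls in the LYVE1+CX3CR1+ subset and above them in both MHCII+ subsets, with log2 differences of -0.35 ± 0.18, 0.25 ± 0.18 and 0.42 ± 0.20, none of them called (adjusted p = 0.384, 0.738 and 0.907).

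Of the salvage enzymes, Aprt, which rebuilds AMP from adenine, had the largest difference after IC. LYVE1+CX3CR1+ libraries were at 31.3, 32.2 and 31.0 CPM in controls and 44.2, 66.1 and 64.3 CPM after IC, without overlap (0.88 ± 0.36, adjusted p = 0.248). Libraries of the other subsets overlapped, and the average over subsets was 0.62 ± 0.21 (adjusted p = 0.119). That average was called with voom (adjusted p = 0.0359), with surrogate variables (0.0412) and without the second MHCII+CD11c- control library (0.0189). Hprt, which rebuilds IMP and GMP from hypoxanthine and guanine, was at 73.4 to 218 CPM over all libraries and had log2 differences of 0.30 ± 0.24, 0.39 ± 0.24 and 0.05 ± 0.27 in the subsets, in the order LYVE1+CX3CR1+, MHCII+CD11c-, MHCII+CD11c+ (adjusted p from 0.645 to 1). Adk, which rebuilds AMP from adenosine, lay between 12.6 and 28.5 CPM and had differences of -0.46 ± 0.38, -0.20 ± 0.37 and 0.14 ± 0.41 (adjusted p from 0.640 to 1). In LYVE1+CX3CR1+ macrophages, Adk libraries were at 21.1, 23.8 and 18.3 CPM in controls and each lower after IC, at 12.6, 15.4 and 17.8 CPM. The median log2 difference over the 8 genes other than Gda was -0.28 in this subset, and that over all genes tested was -0.14. In bulk libraries, more cells with a transcript and more transcript per cell cannot be told apart.

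**Figure D2:**
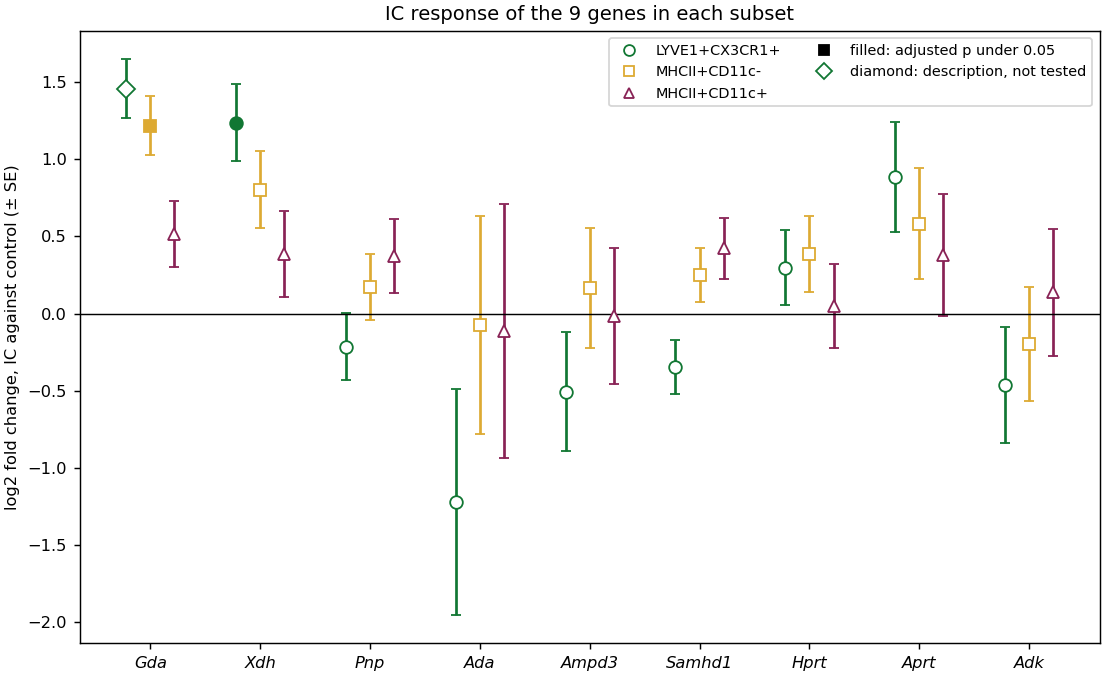
The vertical axis is the log2 fold change of IC against control with its SE for each of the 9 genes, by subset (circle, square and triangle), from the fit to all 17 libraries; filled symbols passed an adjusted p of 0.05, and the diamond is Gda in LYVE1+CX3CR1+ macrophages, which was not tested. The filled symbols are Gda in MHCII+CD11c- macrophages (1.22) and Xdh in LYVE1+CX3CR1+ macrophages (1.24).

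The IC responses of the subsets were also compared with each other. No member of the list was called for a different response between LYVE1+CX3CR1+ and MHCII+CD11c- macrophages (0 of 8 by edgeR, DESeq2 and voom, 1 with an unadjusted p under 0.05; 0.0262% of all genes called) or between LYVE1+CX3CR1+ and MHCII+CD11c+ macrophages (0 of 8 by the 3 tools, 2 with an unadjusted p under 0.05; 0.0327% of all genes). The same was true of the MHCII+ subsets, with Gda included (0 of 9 by the 3 tools, 1 with an unadjusted p under 0.05; 0% of all genes called, although 496 had an unadjusted p under 0.05). Samhd1 had the smallest p among them, with a LYVE1+CX3CR1+ response minus MHCII+CD11c+ response of -0.77 ± 0.26 on the log2 scale (adjusted p = 0.397). For Xdh the difference between the same subsets was 0.85 ± 0.37 (adjusted p = 0.584), and for Gda it was 0.94 ± 0.29, given as a description. These comparisons share their LYVE1+CX3CR1+ and MHCII+ libraries.

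Without IC, Xdh, Pnp and Ampd3 differed between subsets by the test. Per kilobase of exon in GENCODE M21, Hprt had the highest control level of the 9 in each subset, at 104 ± 23.6, 83.7 ± 12.5 and 74.7 ± 26.6 CPM per kb in the order LYVE1+CX3CR1+, MHCII+CD11c-, MHCII+CD11c+ (SD, n = 3 each). Gda had rank 4 in LYVE1+CX3CR1+ controls (31.5 ± 5.97 CPM per kb) and the next after Hprt in both MHCII+ subsets (56.7 ± 7.38 and 61.0 ± 9.64 CPM per kb). After IC, Gda was the highest of the 9 in both MHCII+ subsets, at 132 ± 28.2 (n = 3) and 87.2 ± 9.93 CPM per kb (n = 2), ahead of Hprt at 110 ± 19.6 and 77.5 ± 13.5 CPM per kb. The libraries of the 2 genes overlapped in both subsets. Ada and Adk were the lowest, at 1.78 to 4.66 CPM per kb in controls.

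**Figure D3:**
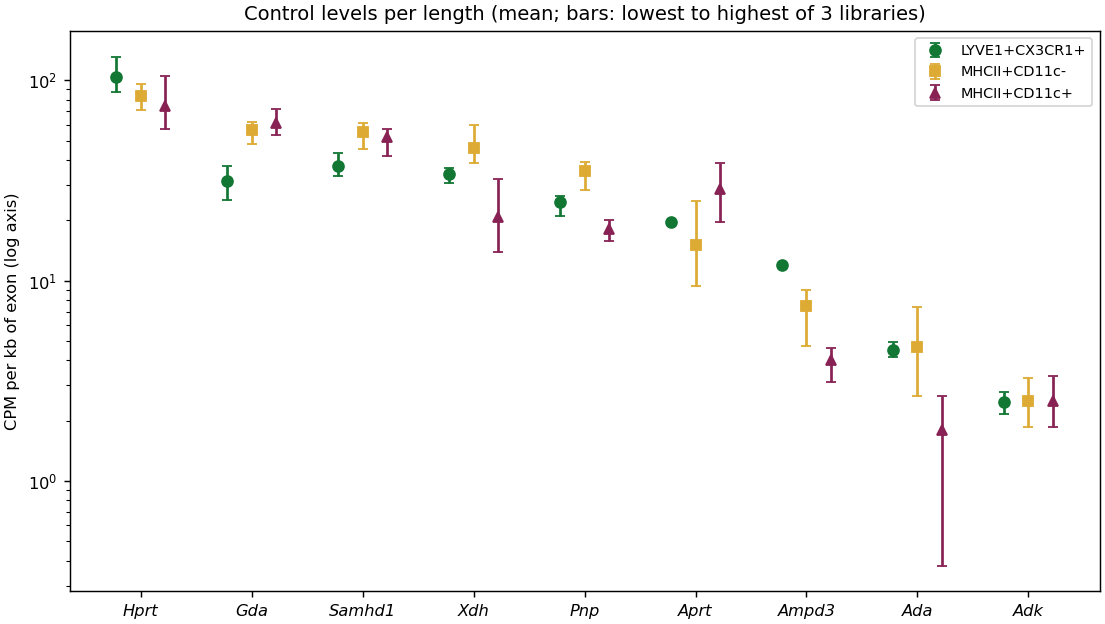
Levels of the 9 genes in control macrophages on a log axis, in CPM per kb of exon (all exons of the gene joined), as the mean with a bar from the lowest to the highest of 3 libraries per subset. Hprt is highest in each subset, Gda is lowest in the LYVE1+CX3CR1+ subset (31.5, against 56.7 and 61.0), and Xdh and Pnp are highest in MHCII+CD11c- macrophages.

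Among MHCII+ macrophages of control mice, the CD11c+ subset had less Xdh and Pnp than the CD11c- subset. Xdh was at 127, 295 and 149 against 353, 548 and 355 CPM, 2.20-fold lower (log2 fold change -1.14 ± 0.25, adjusted p = 0.00572). The highest MHCII+CD11c+ library stayed below the lowest MHCII+CD11c- library, and the adjusted p was 0.0540 with these 2 groups alone. Pnp was at 80.2, 73.7 and 62.8 against 154, 112 and 156 CPM, 1.94-fold lower and again without overlap (-0.96 ± 0.22, adjusted p = 0.00549), and its adjusted p was 0.135 with surrogate variables. Aprt (0.92 ± 0.36, adjusted p = 0.125) was called as higher in the CD11c+ subset without replicate 2 of the CD11c- controls (1.52, adjusted p = 0.00913). Xdh and Pnp were the 2 called of 9 genes in a comparison where 8.66% of all genes were called. Macrophage markers summed to 1958 to 2851 CPM in the CD11c+ controls and 5425 to 6673 CPM in the CD11c- controls, and monocyte markers to 547 to 1153 and 225 to 486 CPM. Markers of the LYVE1+CX3CR1+ sort summed to 83.6, 581 and 57.5 CPM in the CD11c+ controls, in the order of the Xdh values above. In the CD11c- controls they summed to 988, 1721 and 1122 CPM. Their part in these differences was not tested.

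Pnp has a near copy, Pnp2, whose locus lies within that of Pnp on the same strand (chromosome 14, 50955992 to 50964749). The main transcripts of the pair were identical at 97.3% of 1083 aligned bases, so reads may be divided between them or lost. Pnp2 was at 14.3, 6.72 and 16.0 CPM in MHCII+CD11c- controls and at 1.28, 3.16 and 1.13 CPM in MHCII+CD11c+ controls, the same order as Pnp, and was not called (-2.68 ± 0.92, adjusted p = 0.0847). After IC it was at 1.11, 6.18 and 4.68 CPM in MHCII+CD11c- macrophages, below each control (-1.62 ± 0.89, adjusted p = 0.594), while Pnp was at 131, 167 and 177 CPM and overlapped its controls.

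Ampd3 (chromosome 7, 110768206 to 110812405, plus strand) was higher in controls of the LYVE1+CX3CR1+ subset than in those of the MHCII+CD11c+ subset. Its libraries were at 67.2, 65.1 and 68.5 against 17.4, 25.8 and 24.6 CPM, a 2.96-fold difference without overlap (1.57 ± 0.39, adjusted p = 0.00790). It was called in 28 of 28 alternatives, barely so without MHCII+CD11c+ control replicate 1 (highest adjusted p 0.04999). MHCII+CD11c- controls lay between these subsets at 50.3, 49.1 and 26.4 CPM and were not called against either (0.67 ± 0.39 for LYVE1+CX3CR1+ against MHCII+CD11c-, adjusted p = 0.645; -0.90 ± 0.39 for MHCII+CD11c+ against MHCII+CD11c-, adjusted p = 0.182, and -1.23 with adjusted p = 0.0198 with surrogate variables). Ampd3 was the 1 gene of 8 called by edgeR between LYVE1+CX3CR1+ and MHCII+CD11c+ macrophages. As edgeR called 15.2% of all genes there, the members did not stand out from the background by its calls. Xdh (0.71 ± 0.25, adjusted p = 0.0607) and Samhd1 (-0.48 ± 0.18, adjusted p = 0.0694) lay near the threshold in this comparison. Xdh was called in 6 of 28 alternatives and Samhd1 in 11. Those for Xdh included voom (adjusted p = 0.00656), upper quartile scaling (0.0484) and library totals alone (0.0331). Those for Samhd1 included DESeq2 (0.0292), voom (0.0263) and RLE scaling (0.0393). Samhd1 was also called without any of 5 other single libraries and Xdh without 1, with adjusted p from 0.0358 to 0.0498. Without the second MHCII+CD11c+ control library, which had the highest Xdh (295 CPM), Hprt (136 CPM) and Aprt (62.0 CPM) of its group, 4 genes were called: Ampd3, Xdh (1.18, adjusted p = 0.000333), Samhd1 (-0.61, adjusted p = 0.0215) and Hprt (0.80, adjusted p = 0.0284). In that library, markers of the LYVE1+CX3CR1+ sort summed to 581 CPM, against 83.6 and 57.5 CPM in the other controls of its group. Its MHCII genes summed to 20682 CPM, against 34219 and 30602 CPM. The part of these in the changed calls was not tested.

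When LYVE1+CX3CR1+ controls were set against MHCII+CD11c- controls, none of the 8 genes was called by edgeR, where 1.56% of all genes were. Pnp and Samhd1 had an unadjusted p under 0.05. Samhd1 was at 319, 304 and 397 against 559, 417 and 532 CPM (-0.56 ± 0.18, adjusted p = 0.137), without overlap. DESeq2 and voom each called Samhd1 alone (adjusted p = 0.0473 and 0.0183), as did edgeR without the second MHCII+CD11c- control library (adjusted p = 0.0470). Of all genes, DESeq2 called 510 of 13082 and voom 1048 of 15272, and 1564 of 15272 had an unadjusted edgeR p under 0.05.

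The rest of purine metabolism was read from a list of 50 further genes, of which 46 were in the table and 45 passed the filter. After IC, none of the 45 was called by edgeR in LYVE1+CX3CR1+ (8 with an unadjusted p under 0.05; 1 called by DESeq2 and 0 by voom), MHCII+CD11c- (6; 1 and 1) or MHCII+CD11c+ macrophages (3; 0 and 0). Of all 15272 genes, edgeR called 0.963%, 0.701% and 0.216% in these subsets, and 2159, 1526 and 795 had an unadjusted p under 0.05. DESeq2 called 433 of 14855, 286 of 11315 and 74 of 11315 genes, and voom 36, 156 and 98 of 15272. The median log2 differences of the 45 genes were 0.10, 0.20 and 0.20, and those of all genes tested -0.14, -0.03 and 0.01. Over the alternatives the calls among the 45 genes ran from 0 to 5, 0 to 1 and 0 to 0. In the average over subsets, edgeR called 3.35% of all genes and 1 of the 45 (4 by DESeq2, 3 by voom, 0 to 7 over the alternatives). Of all genes, DESeq2 called 935 of 15298 in this average and voom 733 of 15272. The gene called by edgeR was Adssl1, which encodes an adenylosuccinate synthase on the path from IMP to AMP. Its mean was 27.0 ± 0.335 CPM in controls and 47.2 ± 18.9 CPM after IC in LYVE1+CX3CR1+ macrophages, and 31.0 ± 3.56 and 69.8 ± 14.2 CPM in MHCII+CD11c- macrophages (n = 3 each). It was 76.4 ± 25.2 (n = 3) and 97.5 ± 4.34 CPM (n = 2) in MHCII+CD11c+ macrophages. The average difference was 0.78 ± 0.17 (adjusted p = 0.0109, 0.0553 at equal depth), and none of the single subsets was called (adjusted p = 0.194, 0.0625 and 1). The 4 genes for the molybdenum cofactor, which Xdh needs, all had positive differences in the LYVE1+CX3CR1+ and MHCII+CD11c- subsets (medians 0.56 and 0.55), and 3 of 4 in the MHCII+CD11c+ subset (median 0.10), none of them called. The 8 genes of de novo synthesis had medians of 0.45, 0.26 and 0.17 (in the order LYVE1+CX3CR1+, MHCII+CD11c-, MHCII+CD11c+), again with none called. Other steps went both ways in LYVE1+CX3CR1+ macrophages. Medians were 0.55 from IMP to AMP and GMP, 0.52 for nucleotidases and 0.03 for other deaminases. They were -0.21 for nucleoside and nucleotide kinases (6 of 7 negative), -0.80 for other salvage and breakdown and -0.04 for transporters. Of the 45 genes, 25 had a positive difference in this subset.

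Between controls of the LYVE1+CX3CR1+ and MHCII+CD11c+ subsets, edgeR called 6 of 45 genes, 4 lower and 2 higher in LYVE1+CX3CR1+ macrophages. DESeq2 called 12 and voom 19, with 4 to 19 over the alternatives. By edgeR's calls, made for 15.2% of all genes, the list did not stand out from the background. Of all genes, DESeq2 called 2940 of 14855 and voom 3817 of 15272. An unadjusted edgeR p under 0.05 was found for 18 of the 45 genes and for 4065 of all 15272. Atic, which catalyses the last steps to IMP, was at 24.4 ± 1.58 against 63.8 ± 6.16 CPM (n = 3 each; -1.39 ± 0.32, adjusted p = 0.00374). Adssl1 was at 27.0 ± 0.335 against 76.4 ± 25.2 CPM (-1.49 ± 0.29, adjusted p = 0.000704). Nt5c, a nucleotidase that removes phosphate from nucleotides, was at 32.6 ± 5.80 against 73.4 ± 5.87 CPM (-1.17 ± 0.24, adjusted p = 0.00120). These 3 calls held in 28 of 28 alternatives. Gart, another enzyme of de novo synthesis, was close to the threshold (-0.88 ± 0.30, adjusted p = 0.0468) and was called in 15 of 28. Its call was lost without any single control library of either subset, MHCII+CD11c- IC replicate 3 or either MHCII+CD11c+ IC library (adjusted p up to 0.158).

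Both higher genes encode nucleoside transporters of the cell membrane. Slc29a1 was at 71.7 ± 21.8 against 38.4 ± 7.66 CPM (0.91 ± 0.25, adjusted p = 0.0152, called in 23 of 28 alternatives) and Slc28a2 at 68.4 ± 11.3 against 36.3 ± 3.35 CPM (0.91 ± 0.24, adjusted p = 0.0117, in 26 of 28). The call of Slc29a1 was lost without LYVE1+CX3CR1+ control replicate 1 or 3 or MHCII+CD11c+ control replicate 1 (up to 0.145), and that of Slc28a2 without LYVE1+CX3CR1+ control replicate 2 or MHCII+CD11c+ control replicate 3 (up to 0.0685). Slc28a2 was highest in MHCII+CD11c- controls, at 113 ± 19.2 CPM, and was 3.10-fold lower in MHCII+CD11c+ macrophages (-1.63 ± 0.24, adjusted p = 0.000109). In that comparison edgeR called 4 of 45 genes (DESeq2 5, voom 6, 2 to 6 over the alternatives), a share close to the 8.66% of all genes. Of all genes, DESeq2 called 1948 of 14855 and voom 1725 of 15272. The other 3 of the 4 genes called by edgeR were higher in MHCII+CD11c+ macrophages: Atic (1.32 ± 0.32, adjusted p = 0.00992), Adssl1 (1.29 ± 0.29, adjusted p = 0.00515) and Adss, the second adenylosuccinate synthase (1.13 ± 0.30, adjusted p = 0.0197). Without MHCII+CD11c- control replicate 1 or 3, Atic and Adss were not called (nor was Adss without MHCII+CD11c+ control replicate 2, adjusted p = 0.149). For LYVE1+CX3CR1+ against MHCII+CD11c- controls, edgeR called none of the 45 genes, with 7 at an unadjusted p under 0.05, 2 called by DESeq2 and 6 by voom. Of all genes there, edgeR called 238 of 15272, DESeq2 510 of 13082 and voom 1048 of 15272. An unadjusted edgeR p under 0.05 was found for 1564 of the 15272.

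**Figure D4:**
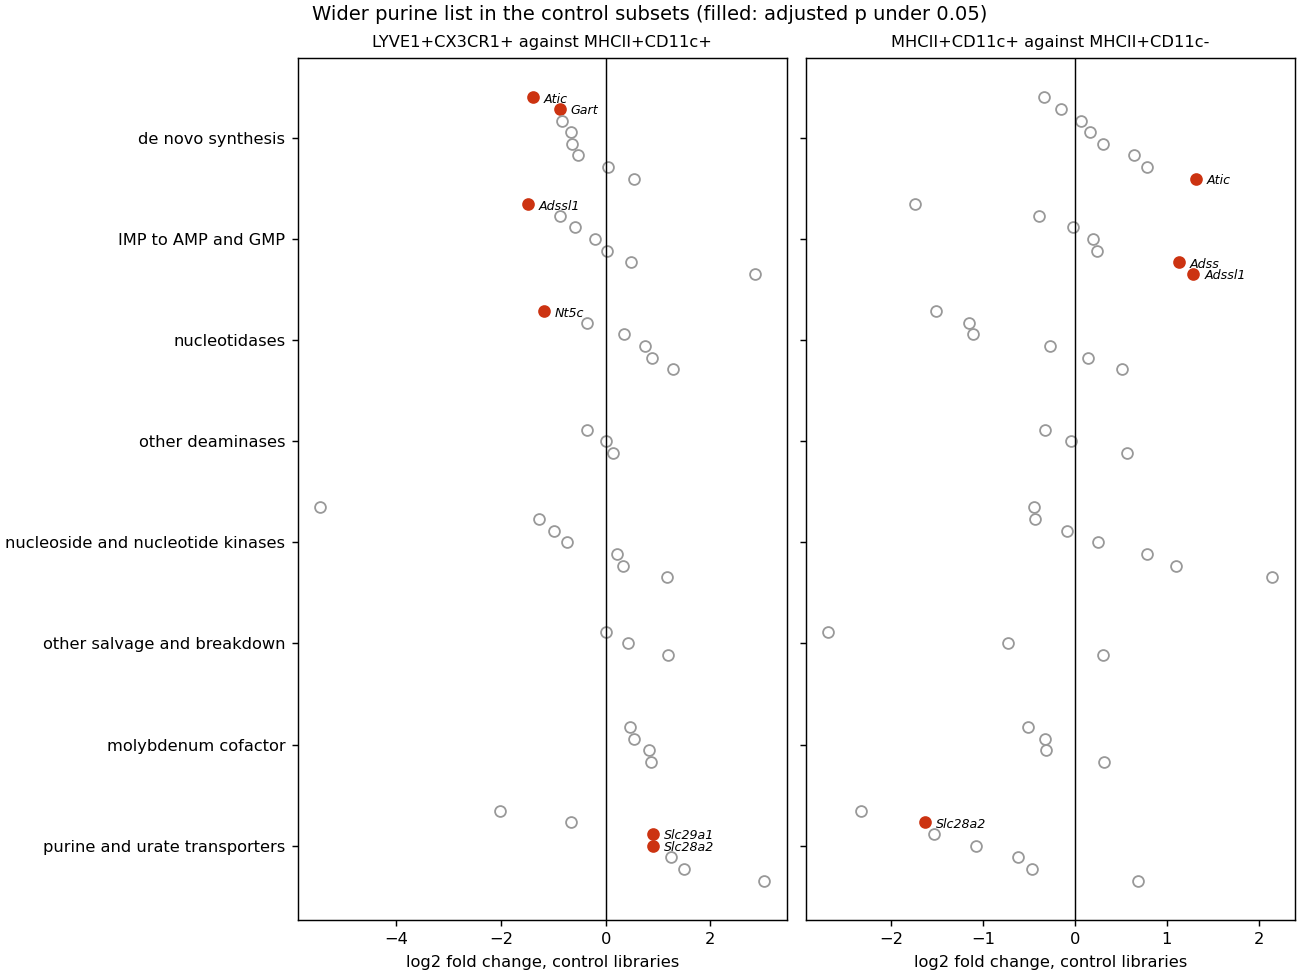
Each circle is 1 gene of the wider purine list, placed by its log2 fold change between control subsets and grouped by step of the pathway; filled and named circles passed an adjusted p of 0.05. In the left panel Atic, Gart, Adssl1 and Nt5c lie below 0 (lower in LYVE1+CX3CR1+) and both transporters above it, and in the right panel Atic, Adss and Adssl1 lie above 0 (higher in MHCII+CD11c+) and Slc28a2 below; the circle farthest to the left is Ak4, which had at most 1 count in each LYVE1+CX3CR1+ control library.

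Across the 17 libraries, the genes whose log2 CPM followed Gda most closely were Ccl9 (Pearson r = 0.905), Mt1 (0.904), Pes1 (0.885), Ccl6 (0.877) and Il2rg (0.870). Ccl9 and Ccl6 encode chemokines, Mt1 a metallothionein, Pes1 a factor of ribosome biogenesis and Il2rg the common gamma chain of cytokine receptors. Ccl9 had means of 622, 759 and 1163 CPM in controls, in the order LYVE1+CX3CR1+, MHCII+CD11c-, MHCII+CD11c+, and 1704, 3274 and 1909 CPM after IC, with the highest group the same as for Gda. Among the other 8 purine genes, Xdh had the highest r with Gda (0.441, rank 729 of the genes tested), followed by Samhd1 (0.434) and Pnp (0.324), and Adk (-0.332), Ada (-0.256) and Ampd3 (-0.234) were below 0. These values describe libraries that share subset, treatment and depth, and no test was made of them.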

How the data were processed

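Macrophages were sorted from the synovium, RNA was made into libraries with the SMARTer stranded total RNA pico input kit, and these were sequenced in pairs. Per the labels and methods, the authors trimmed reads with Trim Galore, aligned them to mm10 with HISAT2, counted reads per gene with featureCounts and tested with DESeq2 after removing batch effects with sva. Versions, annotation, and the use of strand and of reads with several alignments are not given in the sources used here. The deposited values are raw counts per gene symbol, and 1 column of the joint table that matched no sample was not used. The table of each library was identical to its column for 17 of 17 libraries.

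Labels gave subset (Lyve1 read as LYVE1+CX3CR1+, IAIE as MHCII+CD11c-, CD11c as MHCII+CD11c+), treatment and replicate number. Counts were analysed in R 4.3.3 with edgeR 4.0.16: filterByExpr (minimum count 10) over the 6 groups, TMM scaling and glmQLFit with the robust option on all 17 libraries with 1 mean per group (11 residual degrees of freedom; biological coefficient of variation 45.1%), then glmQLFTest for 10 contrasts. Log2 fold changes are given with SE. Alternatives used DESeq2 1.42.0, limma 3.58.1 (voom with quality weights), sva 3.50.0, other scalings, no filter, equal depth, only the groups compared, a replicate block, and each library left out. The edgeR step was also run on simulated counts, with changes set in the MHCII+CD11c- IC libraries only. These counts held no outlier libraries or mixed sorts, and no result here rests on them. No pair of libraries of a group was a repeat (lowest chi-square per degree of freedom 6.77). Precision was limited by 2 or 3 libraries per group and by depth.

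The 9 genes, the purine list and the markers were chosen with earlier results of these data known. Gda was left untested in all contrasts with LYVE1+CX3CR1+ libraries, more strictly than planned, where this covered only those with LYVE1+CX3CR1+ IC libraries. Genes named were the 9 members, genes of the purine list called in any contrast (up to 6 by smallest p), Pnp2, and the 5 with the highest correlation with Gda over log2 CPM (prior count 2). Of the purine list, Uox, Urad, Allc and Slc28a3 were not matched in the table and Urah did not pass the filter. Markers were those of macrophages, the 3 sorts, neutrophils, T cells, B cells, fibroblasts, endothelial cells, mast cells, monocytes, red cells, adipocytes and muscle. Positions and exon lengths are from GENCODE M21 on GRCm38, the mm10 assembly, and 97.4% of the 22859 symbols matched it.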

Additional observations from a re-analysis of the deposited data

How the results depend on the processing

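Counts of the purine genes called were small and some depended on 1 library. After IC, the count in LYVE1+CX3CR1+ macrophages (1, Xdh) was between 0 and 1 with a library left out, and 0 without any of the 3 controls or the third IC library. In MHCII+CD11c- macrophages (1, Gda) it was 1 to 2, with 2 (Gda and Xdh) without the second MHCII+CD11c+ control. In the average over subsets (1, Xdh) it was 2 with voom and with surrogate variables, which added Aprt, and 1 to 2 with a library left out (2 without the second MHCII+CD11c- control). For LYVE1+CX3CR1+ against MHCII+CD11c- controls (0) it was 1 with DESeq2 and voom and 0 to 1 with a library left out. For LYVE1+CX3CR1+ against MHCII+CD11c+ controls (1) it was 2 with RLE scaling, upper quartile scaling, library totals alone or DESeq2, 3 with voom, and 1 to 4 with a library left out. Between the MHCII+ subsets (2, Xdh and Pnp) it was 1 with these 2 groups alone and up to 3 with a library left out (Aprt added without the second MHCII+CD11c- control), and with surrogate variables Ampd3 was called in place of Pnp. No call of a purine gene reversed, and the cause of these changes was not tested. Replicate numbers did not meet the criterion for pairing libraries, a correlation of deviations above 0.1 in every pair. Of 16 pairs with the same number and treatment, 2 exceeded 0.1 (0.00129 to 0.286, median 0.0413), against 0 of 32 with another number and the same treatment (median -0.0287). All 16 pairs were above 0, so pairing by number remains possible, and the labels do not say what a number marks. With the replicate block in edgeR, the count for LYVE1+CX3CR1+ against MHCII+CD11c+ controls was 2, with Samhd1 added (adjusted p = 0.0445). With the block within treatment it was 3, with Xdh (adjusted p = 0.00196) and Samhd1 (0.0439) added. The block changed no other count of purine genes called. The number of all genes called lay between 36 and 1206 for IC in LYVE1+CX3CR1+ (147), 29 and 286 in MHCII+CD11c- (107), and 0 and 104 in MHCII+CD11c+ macrophages (33). It lay between 96 and 1048 (238), 1591 and 3817 (2326), and 782 and 1948 (1323) for the control subsets, in the order LYVE1+CX3CR1+ against MHCII+CD11c-, against MHCII+CD11c+, and between the MHCII+ subsets. For the average over subsets it was 198 to 1342 (511), and for the differences in response 0 to 134 (4), 3 to 56 (5) and 0 to 21 (0), in the same order of subsets, with 56 and 21 without the second MHCII+CD11c+ control. Other scalings put the share of higher genes among those called at 20.9 to 26.4% in place of 15.6% in LYVE1+CX3CR1+ macrophages after IC, and 65.5 to 70.1% in place of 77.6% in MHCII+CD11c- macrophages. They moved the median log2 value of all genes from -0.16 to as much as -0.03 (LYVE1+CX3CR1+ minus MHCII+CD11c- response) and from -0.21 to -0.04 (minus MHCII+CD11c+). At low depth, Ada and Pnp2 rest on few counts.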
